A study of Homo sapiens with 6 samples.

Results

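The p38 cascade kinases are the p38 MAP kinases (MAPK11, MAPK12, MAPK13 and MAPK14), the MAP2 kinases that activate them (MAP2K3 and MAP2K6) and the kinases that they activate in turn (MAPKAPK2, MAPKAPK3, MAPKAPK5 and RPS6KA5). These 10 genes were chosen by name and looked up by Ensembl identifier. Of the 10, 7 had a row among the 59192 features of the expression table, and all 7 passed the filter on low values, a mean normalized count of 10 or more over the libraries. No row carried the identifiers of MAPK12, MAPK13 and MAPKAPK5. The table also holds 33265 loci named by a transcript assembler, without symbols, so the RNA of these 3 kinases was not analysed here.

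RNA sequencing compared SW480-KD1 cells, labelled SW480-45, with SW480-NC control cells, with 3 independent experiments, each giving 1 library, for each of them. SW480 is a human colorectal adenocarcinoma cell line. Both cell lines carry lentiviral Cas9, were selected with puromycin and carry an EGFP vector with a guide RNA, which is directed at HPSE, the gene of heparanase, in SW480-KD1 and is a control guide in SW480-NC. Each cell line is 1 stable infected line, and no source used here says whether it is a clone or a pool, so an effect of the guide and a difference between these particular lines cannot be told apart.

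The p38 cascade is a relay of phosphorylation that answers stress and inflammatory signals. MAP3 kinases activate MAP2K3 (MKK3) and MAP2K6 (MKK6), which place phosphates on the threonine and the tyrosine of a Thr-Gly-Tyr motif in the activation loop of p38. Active p38 phosphorylates transcription factors and further kinases, among them MAPKAPK2 (MK2), which protects short-lived inflammatory mRNAs from decay, and RPS6KA5 (MSK1), which phosphorylates histone H3 and CREB. RNA sequencing measures the transcripts of these kinases and not their phosphorylation. The question asked here was whether the RNA of the kinases differed between the cell lines, given that the study examined the pathway through p38 phosphorylation and the collagenase gene MMP1. By western blot, the study reported less phosphorylated p38 and MMP1 after HPSE knockdown and more of both after HPSE overexpression. A p38 pathway inhibitor removed that increase. MAPK14 was also the most connected protein in its interaction network. The blots measured protein, and the RNA levels here do not test them.

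The activation loop is what makes the p38 kinases a family, and the reference sequences show how far the 4 genes can be told apart by reads. In each gene the motif lies in exon 7. The sequences below are 45 bases of the coding strand from GENCODE 29 transcripts on GRCh38, 5′ to 3′, with the 3 codons of the Thr-Gly-Tyr motif in capitals.
MAPK14: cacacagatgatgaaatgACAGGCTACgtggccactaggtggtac
MAPK11: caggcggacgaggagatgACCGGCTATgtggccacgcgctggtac
MAPK12: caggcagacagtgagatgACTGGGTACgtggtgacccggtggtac
MAPK13: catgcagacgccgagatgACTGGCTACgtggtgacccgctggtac
The capitals of MAPK14 lie at chr6:36075890-36075898 on the plus strand, those of MAPK13 at chr6:36136698-36136706 on the plus strand, those of MAPK11 at chr22:50266998-50267006 and those of MAPK12 at chr22:50256149-50256157, both on the minus strand. MAPK11 shared 34 of the 45 bases with MAPK14 (75.6%), and MAPK12 and MAPK13 shared 33 each (73.3%). Over the whole annotated transcripts, none of the 7041 windows of 50 bases of MAPK14 and none of the 2816 of MAPK11 occurred in a transcript of another gene. Of the windows of MAPK12, 27.2% occurred in other genes, most often in HDAC10, and of those of MAPK13 1.35% did. MAPK14 and MAPK11 thus share no exact stretch of 50 bases with another annotated gene. Copies with mismatches were not searched for.

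Before the members are described, the targeted gene checks the labels. For HPSE the normalized counts were 136, 172 and 146 in SW480-KD1 and 270, 295 and 246 in SW480-NC (replicates 1, 2 and 3, the order kept throughout). The cell lines did not overlap, and the log2 fold change was −0.83 (SE 0.14, limma adjusted p = 0.0547). The libraries held 33221323 to 39802365 reads. Of the epithelial markers with a row (4 of 6), EPCAM had 16775 to 18783 normalized counts over the 6 libraries. KRT8, a keratin gene, was lower in SW480-KD1 without overlap, at a log2 fold change of −0.21 (SE 0.06, limma adjusted p = 0.141), and CLDN4, a tight junction gene, varied from 84.7 to 6110 between libraries. The summed level of these markers was 103884 to 108537 in SW480-KD1 and 114860 to 119722 in SW480-NC. Of the intestinal markers (3 of 4 with a row), LGR5 was lower in SW480-KD1, at a log2 fold change of −0.53 (SE 0.08, limma adjusted p = 0.0426), VIL1 was higher without overlap, at 0.20 (SE 0.07, limma adjusted p = 0.225), and CDX2 was 19.0 to 40.3. Some markers of other cell types were detected. The summed fibroblast markers (3 of 4 with a row) were 276 to 386 in SW480-KD1 and 229 to 264 in SW480-NC. Most of this was COL1A1, with 342, 359 and 226 against 252, 205 and 198 normalized counts (log2 fold change 0.48, limma adjusted p = 0.297), whereas COL1A2 was listed at 0 in 5 of the 6 libraries. The summed endothelial markers (3 of 3) were 28.0 to 43.2 against 12.6 to 26.5, from PECAM1 and VWF, and CDH5 was listed at 0 in 5 of the 6 libraries. CD14, the leukocyte marker with a row (1 of 3), was 38.6 to 44.3 against 28.97 to 46.7. The part of these marker levels in the results below was not tested. All libraries came from cultures of SW480 cells. A change in the share of cells that express a marker cannot be told apart from a change in RNA per cell.

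Among the 7 kinases with a row, MAPK14 and MAP2K6 had more RNA in SW480-KD1 and RPS6KA5 had less, each at an unadjusted p under 0.05, and the other 4 had no difference that the test could separate from the spread. The 3 members compare with 16.2% of all 21703 features tested that had an unadjusted p under 0.05, 8.1% in the higher and 8.15% in the lower direction. No member had an adjusted p under 0.05 in limma, where 0.802% of all features had one. In edgeR and in DESeq2, run on the same reads, 3 members again had an unadjusted p under 0.05 and none an adjusted p under 0.05, against an adjusted p under 0.05 for 0.627% of the 21703 features in edgeR and for 4.55% of the 16618 features to which DESeq2 gave an adjusted p. The count of 3 became 1 when SW480-KD1 replicate 1 or either of replicates 1 and 2 of SW480-NC was left out. The median log2 fold change of the 7 was 0.02, and that of all features tested was −0.0048. The values of the cell lines did not overlap for 2 of the 7 members, MAP2K6 (higher) and RPS6KA5 (lower), against 23.4% of all features, 11.4% higher and 12% lower.

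**Figure D1:**
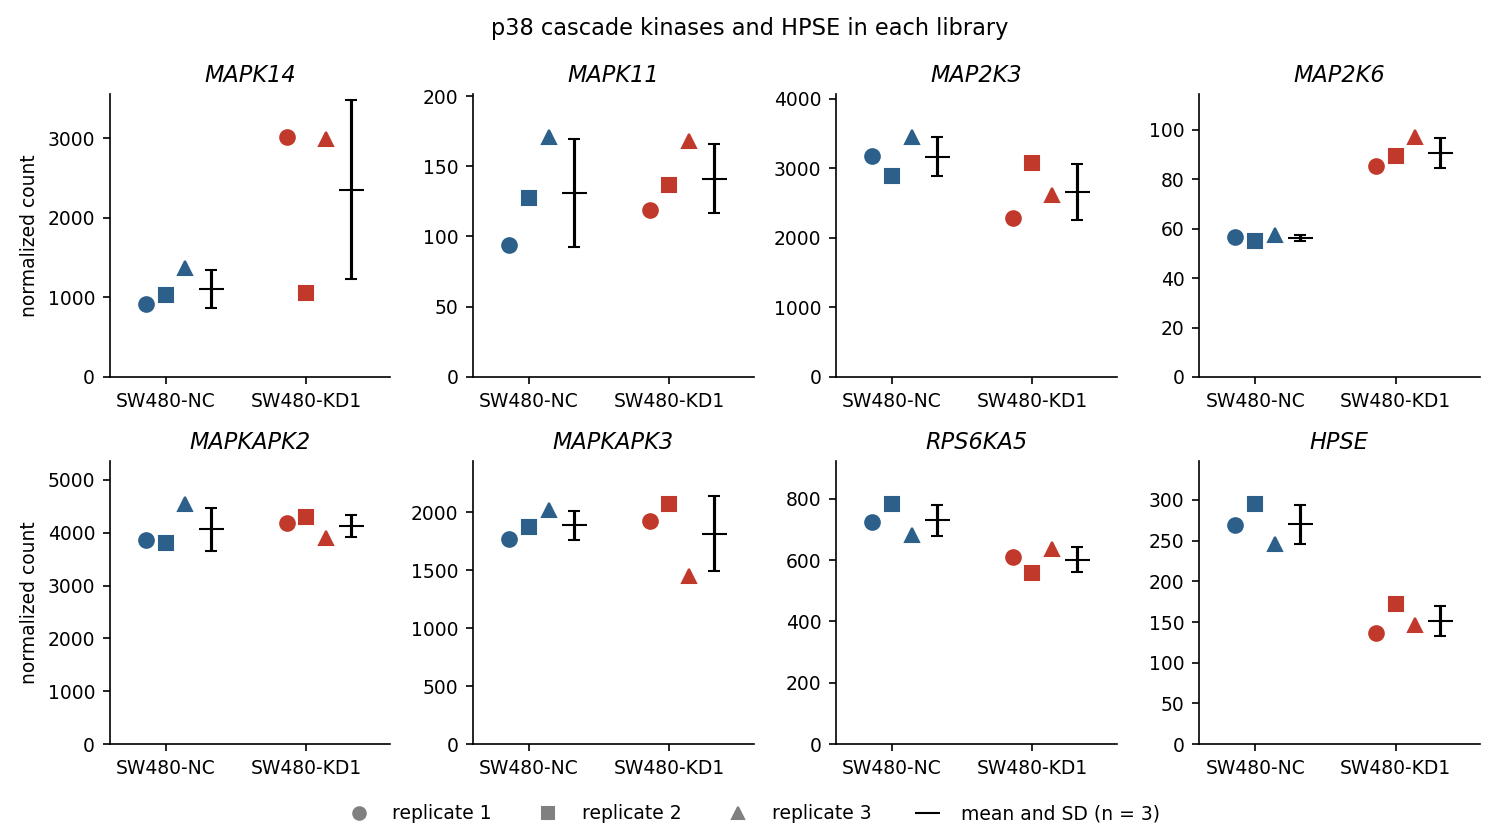
Normalized counts (y axis, from 0) of the 7 p38 cascade kinases and of HPSE in each SW480-NC library (blue) and SW480-KD1 library (red), with symbols for replicates 1, 2 and 3 and bars for the mean and SD of 3 libraries. The MAPK14 points of SW480-KD1 replicates 1 and 3 lie at 3012 and 2993 and that of replicate 2 lies among the controls, whereas the MAP2K6 and RPS6KA5 points of the cell lines do not overlap.

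MAP2K6, the MAP2 kinase that is selective for p38, was the member with the smallest p. Its gene (ENSG00000108984) spans chr17:69414698-69553861 on the plus strand. It had 85.4, 89.4 and 97.0 normalized counts in SW480-KD1 and 56.5, 55.0 and 57.3 in SW480-NC. Every SW480-KD1 library was above every SW480-NC library, and the spread within each cell line was small, with means of 90.6 ± 5.91 and 56.3 ± 1.12 (SD, n = 3 each). The log2 fold change was 0.68 (SE 0.16, 95% confidence interval 0.30 to 1.05), with a limma adjusted p of 0.116. The adjusted p ranged from 0.0992 to 0.298 over the 14 alternative settings and so did not pass the threshold in any. These are low values, resting on 54 to 103 reads per library. Of the transcript windows of 50 bases of MAP2K6, 0.445% occurred in other genes.

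MAP2K3, the other activator, was the more abundant of the pair. Its gene (ENSG00000034152) spans chr17:21284672-21315240 on the plus strand. It had 2284, 3081 and 2620 normalized counts in SW480-KD1 and 3172, 2884 and 3446 in SW480-NC. SW480-KD1 replicates 1 and 3 were below all controls, and replicate 2 was inside their range. The means were 2661 ± 400 and 3167 ± 281 (SD, n = 3 each), and the log2 fold change was −0.26 (SE 0.12, interval −0.54 to 0.03, limma adjusted p = 0.346). Without SW480-KD1 replicate 2 it was −0.37 (limma adjusted p = 0.311). Of its transcript windows, 1.91% also occurred in AC243725.1.

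MAPK14 encodes p38α, the broadly expressed p38 kinase through which most p38 functions are known. The gene (ENSG00000112062) spans chr6:36027677-36111236 on the plus strand and has 10 annotated transcripts. It had 3012, 1056 and 2993 normalized counts in SW480-KD1, which correspond to 2857, 1169 and 3177 reads. In SW480-NC it had 914, 1031 and 1368 normalized counts, from 874, 1068 and 1290 reads. SW480-KD1 replicates 1 and 3 stood 2.73 and 2.71 times above the SW480-NC mean, and replicate 2 stood at 0.956 times that mean, inside the range of the controls. The cell lines therefore overlapped. The means were 2354 ± 1124 and 1104 ± 235 (SD, n = 3 each), and the log2 fold change was 0.96 (SE 0.39, interval 0.05 to 1.87), with a limma adjusted p of 0.287.

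The call for MAPK14 turned on single libraries. Without SW480-KD1 replicate 2 the log2 fold change was 1.46 (limma adjusted p = 0.0447), the only one of the 14 settings that passed the threshold. Without SW480-KD1 replicate 1 it was 0.71 (limma adjusted p = 0.532), and without replicate 3 it was 0.71 (limma adjusted p = 0.459). The unadjusted limma p was above 0.05 in these fits (0.136 and 0.139) and without SW480-NC replicate 1 (0.120) or 2 (0.0891). It was also above 0.05 without the intensity trend (0.0859) and with a filter at a mean of 50 (0.0516). The direction of the MAPK14 difference was the same in all 14 settings. Each setting kept SW480-KD1 replicate 1 or replicate 3, the high libraries, so the shared direction is no separate evidence. The SD of the log2 values of MAPK14 was 0.87 in SW480-KD1, where 99.1% of the 8967 features with a mean normalized count of 500 or more had a smaller one and their median was 0.098. In SW480-NC it was 0.30, above 90.6% of those features. The spread of MAPK14 between replicates was known when the group was chosen, so these ranks describe it and are no test. SW480-KD1 replicate 2 was also the deepest library, at 39802365 reads, and had the highest HPSE value of its cell line (172), and the part of either in the MAPK14 value was not tested.

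MAPK11 encodes p38β, the isoform closest to p38α in sequence. Its gene (ENSG00000185386) spans chr22:50263713-50270767 on the minus strand. It had 119, 136 and 168 normalized counts in SW480-KD1 and 94.1, 127 and 171 in SW480-NC. The ranges of the cell lines overlapped almost entirely. The means were 141 ± 24.6 and 131 ± 38.4 (SD, n = 3 each), and the log2 fold change was 0.14 (interval −0.42 to 0.70, limma adjusted p = 0.818). Its direction turned to −0.08 without SW480-NC replicate 1. The interval leaves room for a change of either sign, so the values do not show that MAPK11 was equal in the cell lines. MAPK12 (p38γ, ENSG00000188130) and MAPK13 (p38δ, ENSG00000156711) complete the family. MAPK12 lies 1888 bases before MAPK11 on chromosome 22 and MAPK13 lies 16573 bases past MAPK14 on chromosome 6, so the family sits in 2 tandem pairs.

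Summed per kilobase of exon, MAPK11 and MAPK14 gave 483, 205 and 499 normalized counts per kilobase in SW480-KD1 and 168, 198 and 263 in SW480-NC. SW480-KD1 replicate 2 again fell within the control range. The means were 396 ± 166 and 210 ± 48.4 (SD, n = 3 each), a difference of 186 (p = 0.2, two-sided exact permutation test, for which 3 against 3 libraries cannot give less than 0.1). MAPK14 made up 90.8%, 75.2% and 87.5% of this sum in SW480-KD1 and 79.2%, 76.0% and 75.8% in SW480-NC. The mean share was 84.5% ± 8.23 against 77.0% ± 1.88, a difference of 7.49 percentage points (p = 0.4, two-sided exact permutation test, n = 3 each). MAPK12 and MAPK13 are not in these sums.

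The effector kinases come last in the relay. MAPKAPK2 (ENSG00000162889, chr1:206684944-206734283, plus strand), the best known p38 effector, had 4181, 4303 and 3895 normalized counts in SW480-KD1 and 3868, 3796 and 4534 in SW480-NC. The ranges overlapped, and the log2 fold change was 0.02 (interval −0.18 to 0.23, limma adjusted p = 0.918). The sign of so small a difference turned for 3 of the 6 libraries when each was left out, as it did in 1 of 6 for MAPKAPK3. MAPKAPK3 (MK3, ENSG00000114738, chr3:50611520-50649297, plus strand), a close relative of MAPKAPK2, had 1927, 2067 and 1453 normalized counts in SW480-KD1 and 1769, 1873 and 2020 in SW480-NC. SW480-KD1 replicate 3 was below the control range, replicate 2 was above it and replicate 1 was inside it. The log2 fold change was −0.07 (interval −0.39 to 0.25, limma adjusted p = 0.841). The 218 bases of exon that MAPKAPK3 shares with CISH on the opposite strand could count toward either gene, because the library kit does not mark strand.

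RPS6KA5 (ENSG00000100784) spans chr14:90847862-91060636 on the minus strand. It had 611, 556 and 636 normalized counts in SW480-KD1 and 725, 781 and 682 in SW480-NC. Every SW480-KD1 library was below every SW480-NC library. The means were 601 ± 40.7 and 729 ± 49.9 (SD, n = 3 each), and the log2 fold change was −0.28 (SE 0.10, interval −0.51 to −0.04), with a limma adjusted p of 0.242. The adjusted p ranged from 0.177 to 0.534 over the 14 alternative settings. The unadjusted limma p was above 0.05 without SW480-KD1 replicate 1 (0.0512) or 2 (0.0848). It was also above 0.05 without SW480-NC replicate 1 (0.0526) or 2 (0.0918) and with the replicate number as a block (0.0639). The call for RPS6KA5 thus turned on single libraries. Its sister gene RPS6KA4 (MSK2), which has the same known substrates and is no member of the group, had 1941, 1955 and 1865 normalized counts in SW480-KD1 and 2783, 2297 and 2457 in SW480-NC, also without overlap (log2 fold change −0.38, SE 0.09, limma adjusted p = 0.112). RPS6KA5 shares 304 bases of exon with DGLUCY on the opposite strand, and DGLUCY had a log2 fold change of 0.15 (limma adjusted p = 0.515).

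**Figure D2:**
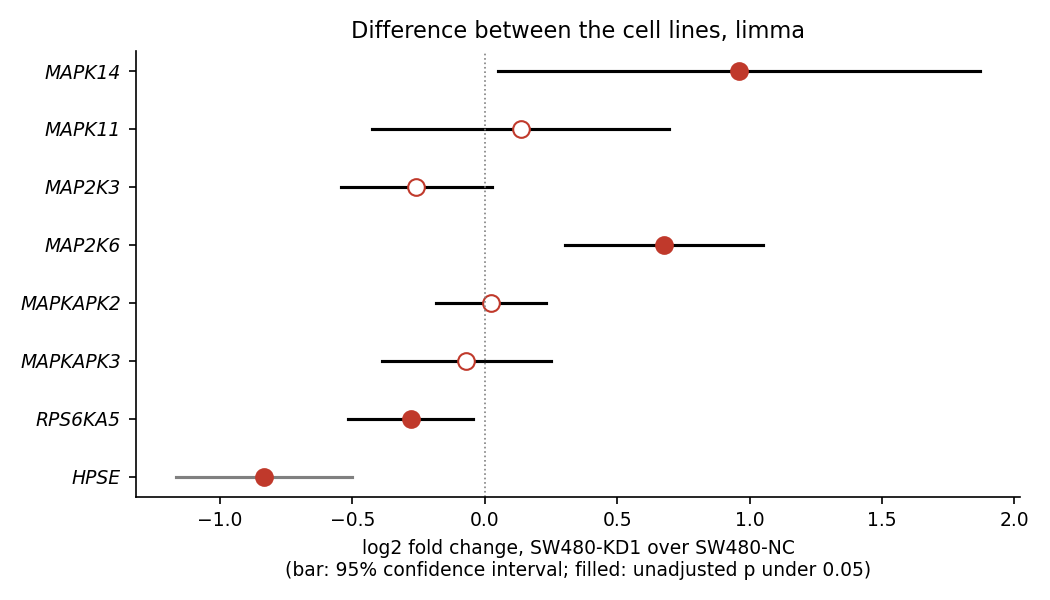
Log2 fold change of SW480-KD1 over SW480-NC (x axis) for the 7 kinases and HPSE, with bars for the 95% confidence interval from limma and filled points for an unadjusted p under 0.05. The intervals of MAPK14, MAP2K6 and RPS6KA5 leave out 0, and that of MAPK14, from 0.05 to 1.87, is the widest.

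Levels can be compared between genes only per length. Per kilobase of annotated exon, the mean level in SW480-NC was highest for MAPKAPK2 (969 normalized counts per kilobase) and MAP2K3 (837), followed by MAPKAPK3 (481), MAPK14 (161), MAPK11 (48.7), RPS6KA5 (26.1) and MAP2K6 (3.38). MAP2K3 was thus far above MAP2K6, and MAPK14 above MAPK11. The place of RPS6KA5 below MAPK11 rests on the length assumed. Its annotated exons cover 27976 bases against 2688 for MAPK11, and a long transcript of 26795 bases makes up most of them. Without division by length, RPS6KA5 had a mean of 729 normalized counts in SW480-NC and MAPK11 had 131. How far MAP2K6 lies below the others rests on the length too. Its annotated exons cover 16655 bases, with a longest transcript of 13400 bases. Without division MAP2K6 was still the lowest, with a mean of 56.3 normalized counts in SW480-NC. Which transcripts the cells make was not tested. MAPKAPK2 and MAP2K3 overlapped in the SW480-NC libraries, at 905 to 1081 and 762 to 911 normalized counts per kilobase of exon. They also overlapped when the longest transcript was taken as the length, at 1282 to 1531 and 1201 to 1435. In SW480-KD1 the order of the means was unchanged, with 984, 704, 463, 343, 52.5, 21.5 and 5.44 normalized counts per kilobase for the same 7 genes. MAPK14 and MAPKAPK3 overlapped there, since MAPK14 ranged from 154 to 439 and MAPKAPK3 from 370 to 527 normalized counts per kilobase.

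**Figure D3:**
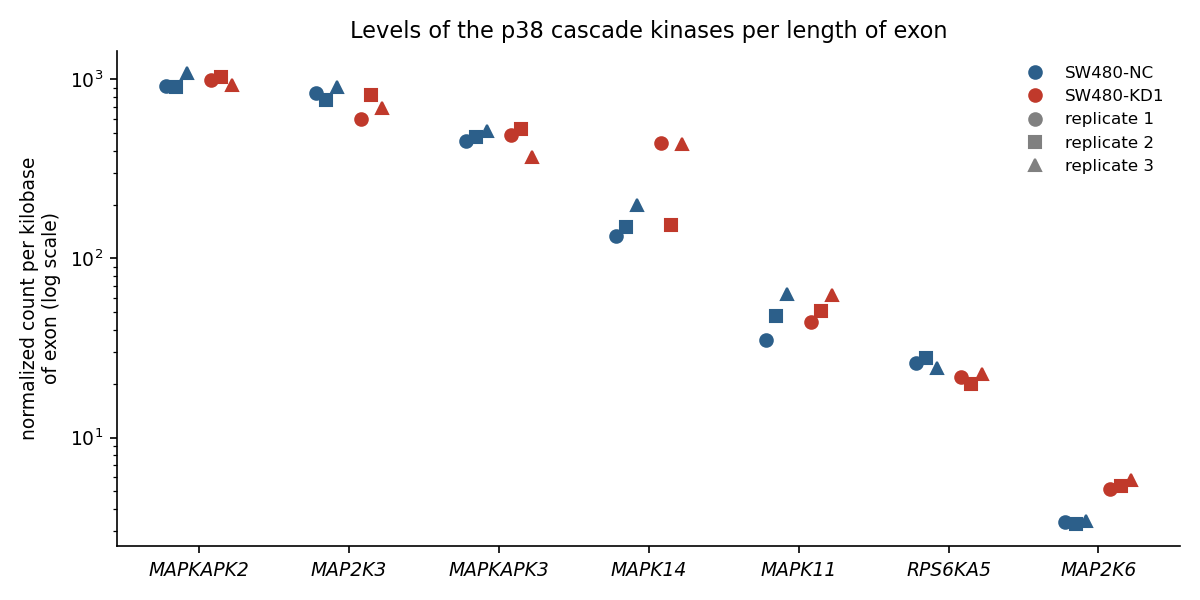
Normalized counts per kilobase of exon (y axis, log scale) of the 7 kinases in each SW480-NC library (blue) and SW480-KD1 library (red), with symbols for the replicates and genes ordered by their SW480-NC mean. The levels run from 969 for MAPKAPK2 to 3.38 for MAP2K6 in the SW480-NC means, and MAPK14 is the gene with the widest red spread.

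The genes whose pattern over the libraries was most like that of MAPK14 were DIP2B, MAP2, MTMR8, KIRREL1 and KHK, with Pearson r from 0.977 to 0.992 in log2 values over 6 libraries. They are the top 5 of 9379 named features with a mean normalized count of 50 or more, and the list is a description of which genes vary alike. DIP2B had 5494, 3435 and 5789 normalized counts in SW480-KD1 and 3446, 3469 and 3865 in SW480-NC. KIRREL1, a nephrin-like adhesion protein gene, had 4025, 2158 and 3612 in SW480-KD1 and 2270, 2099 and 2504 in SW480-NC. In all 5 genes SW480-KD1 replicates 1 and 3 were above every control, and in none did the 3 SW480-KD1 libraries all lie above the controls. Among the same features the opposite pattern was held by CCDC117 (Pearson r −0.984), with 1431, 3230 and 1570 normalized counts in SW480-KD1 and 3969, 4029 and 3193 in SW480-NC. PDCD10 was the most opposite, with Pearson r of −0.995, and CCDC117 is given because its fold was the largest of the 5 most opposite genes, chosen after its values were seen.

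**Figure D4:**
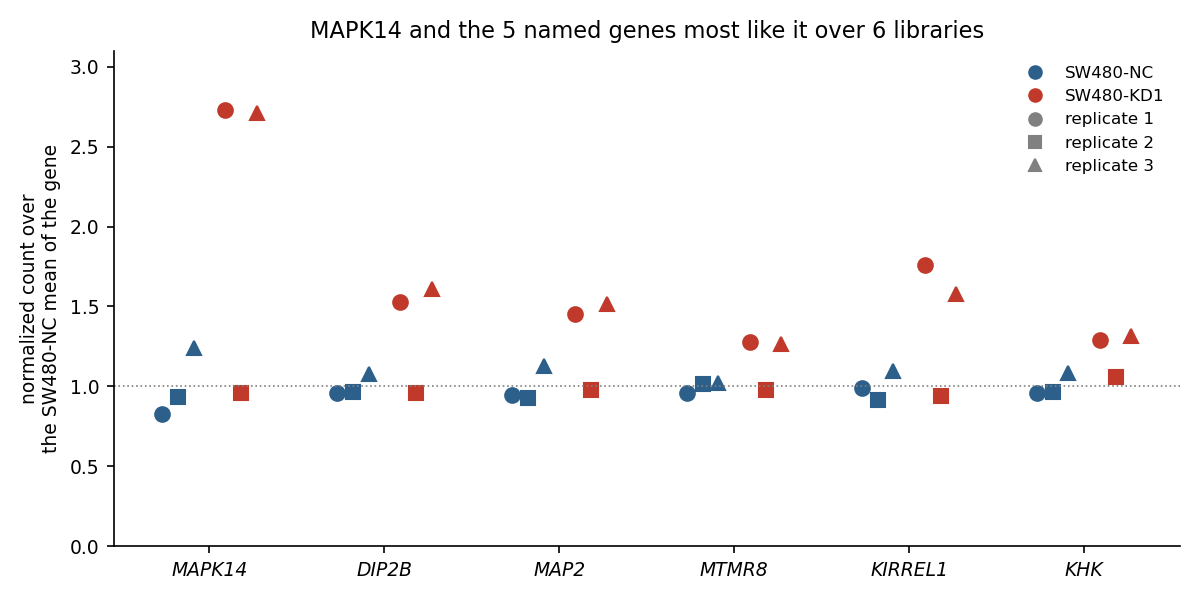
Normalized count of each gene divided by its SW480-NC mean (y axis, from 0) for MAPK14 and the 5 named genes with the most similar pattern, in SW480-NC (blue) and SW480-KD1 (red) libraries with symbols for the replicates. SW480-KD1 replicates 1 and 3 lie above the controls in every gene, and the MAPK14 points, at 2.73 and 2.71, lie the farthest above.

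The nearest genes that passed the filter on each side of MAPK14 did not show its split between SW480-KD1 replicates. MAPK13, which lies between MAPK14 and BRPF3, had no row, so the values do not cover every gene beside MAPK14. SRPK1, which ends 106335 bases before MAPK14, had 8347, 8372 and 9218 normalized counts in SW480-KD1 and 8864, 10117 and 8748 in SW480-NC (log2 fold change −0.09). BRPF3, which begins 85508 bases past it, had 1874, 1944 and 1790 in SW480-KD1 and 1912, 1782 and 2074 in SW480-NC (log2 fold change −0.04). Z95152.1, a processed pseudogene inside the MAPK14 gene on the opposite strand with no shared exon, had 39.0, 55.1 and 58.4 against 37.7, 37.7 and 36.1. TUBGCP6 and PPP6R2, the nearest such genes on each side of the MAPK11 and MAPK12 pair, each had a log2 fold change of 0.04.

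The other genes of the pathway were taken from lists of upstream kinases, phosphatases, substrates and dependent transcripts. Of 14 upstream MAP3 kinases, adaptors and GADD45 genes tested, 5 were higher and 9 lower in SW480-KD1 (median log2 fold change −0.07), and 1 higher and 2 lower ones had an unadjusted p under 0.05, against 8.1% and 8.15% of all features. MAP3K5 (ASK1), a stress-activated kinase above MAP2K3 and MAP2K6, had 1861, 1821 and 1935 normalized counts in SW480-KD1 and 2254, 2244 and 2212 in SW480-NC (log2 fold change −0.26, limma adjusted p = 0.144). MAP3K20 (ZAK), which senses stalled ribosomes, had a log2 fold change of −0.27 (limma adjusted p = 0.138). GADD45B, an activator of the MAP3 kinase MAP3K4, had 62.2, 69.5 and 46.2 normalized counts in SW480-KD1 and 31.4, 28.0 and 36.1 in SW480-NC (log2 fold change 0.87, limma adjusted p = 0.153). The cell lines did not overlap for any of these 3 genes, as for 23.4% of all features, and none of the 14 had an adjusted p under 0.05.

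The phosphatases that switch p38 off gave 3 higher and 2 lower of 5 tested. DUSP10 (MKP5), which is selective for p38 and JNK, had 75.9, 88.5 and 71.6 normalized counts in SW480-KD1 and 50.2, 27.04 and 43.5 in SW480-NC, without overlap (log2 fold change 0.99, SE 0.26, limma adjusted p = 0.141). It was the 1 phosphatase with an unadjusted p under 0.05, against 16.2% of all features, and 23.4% of all features did not overlap. DUSP1, the stress-induced phosphatase, had 291, 231 and 301 against 280, 272 and 238 normalized counts. Of 12 other kinases and substrates of p38 tested, 5 were higher and 7 lower (median log2 fold change −0.02). RPS6KA4, described above, was the 1 with an unadjusted p under 0.05, against the same 16.2% of all features. None of these 17 had an adjusted p under 0.05.

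Among transcripts known to depend on p38 or MK2, 11 of the 16 listed were tested, and 4 were higher and 7 lower (median log2 fold change −0.55, against −0.0048 for all features). An unadjusted p under 0.05 was found for 1 higher and 5 lower transcripts (8.1% and 8.15% of all features), and an adjusted p under 0.05 for 3 lower ones (0.802% of all features in either direction). MMP1, MMP13, CXCL8 and PTGS2 were in the list because the study picked them from these same libraries, so neither the counts nor the median are independent evidence of a direction. Without these 4, a choice made after the values were seen, 4 of the other 7 were higher and 3 lower, and the median log2 fold change was 0.09. All 4 lay below the median of the list, so leaving them out had to raise it. The rest is therefore no evidence of a direction either. MMP1, an interstitial collagenase, had 52.7, 86.7 and 79.1 normalized counts in SW480-KD1 and 295, 277 and 295 in SW480-NC (log2 fold change −2.004, SE 0.20, limma adjusted p = 0.01004, and 0.0644 without SW480-NC replicate 1, 0.0749 without the intensity trend and 0.0610 with the replicate number as a block). Its SW480-KD1 libraries were all far below the controls. Replicate 2, in which MAPK14 was near the controls, had the highest MMP1 value of the 3, from 96 reads. It was close to that of replicate 3, from 84 reads, in which MAPK14 was high. A relation between MAPK14 and MMP1 was not tested. CXCL8, the neutrophil chemokine interleukin-8, fell (log2 fold change −1.05, limma adjusted p = 0.0435), as did PTGS2, which encodes cyclooxygenase-2 (−1.04, limma adjusted p = 0.0481). The last 2 calls were lost whenever any 1 library was left out, with limma adjusted p of 0.0621 to 0.165 for CXCL8 and 0.0833 to 0.188 for PTGS2. PLAUR, the urokinase receptor gene, had a log2 fold change of −0.43 (limma adjusted p = 0.101). VEGFA was the 1 higher transcript with an unadjusted p under 0.05, named after its values were seen, with a log2 fold change of 0.28 (limma adjusted p = 0.140).

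The sister MAP kinase pathways served for comparison. Of 10 ERK, JNK and ERK5 kinases and their MAP2 kinases tested, 6 were higher and 4 lower (median log2 fold change 0.03), and none had an adjusted p under 0.05. MAPK3 (ERK1) was the 1 with an unadjusted p under 0.05, against 16.2% of all features. It had 555, 708 and 625 normalized counts in SW480-KD1 and 444, 452 and 543 in SW480-NC (log2 fold change 0.39, SE 0.13, limma adjusted p = 0.219). Whether the p38 kinases differed more than these kinases was not tested.

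**Figure D5:**
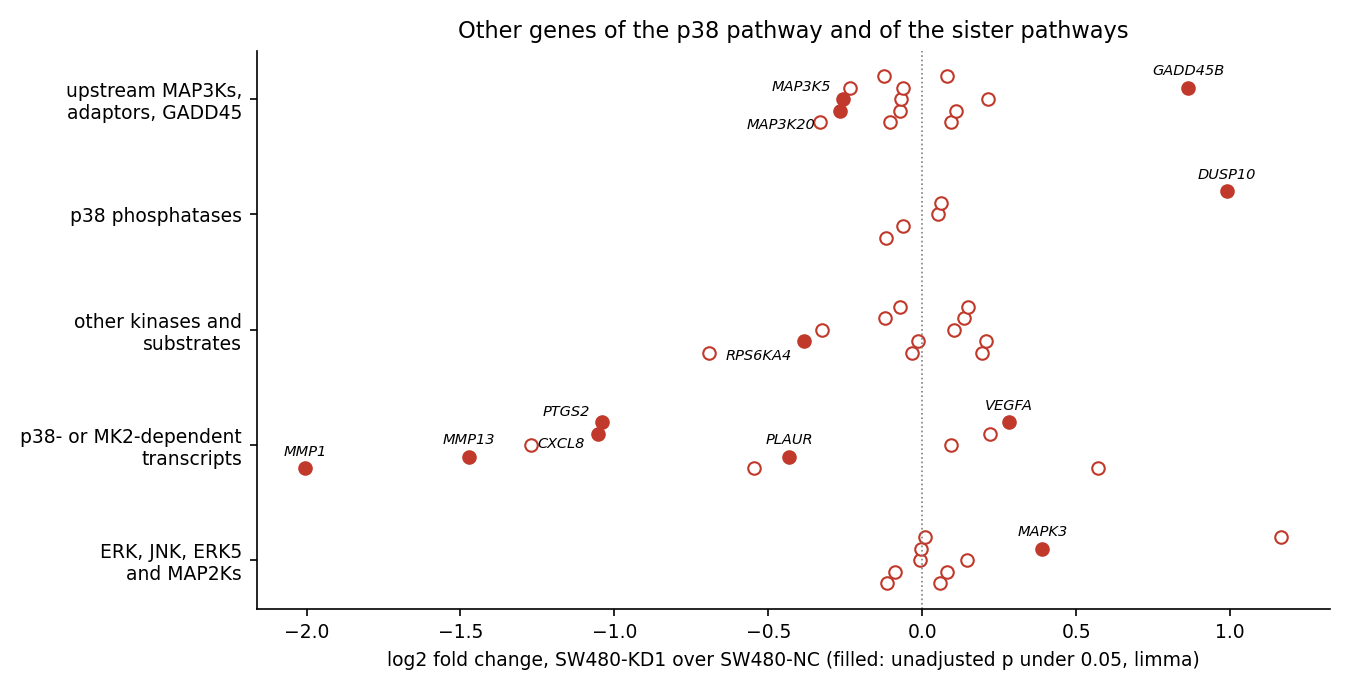
Log2 fold change of SW480-KD1 over SW480-NC (x axis) for each tested gene of 5 lists (rows), with filled points and names for genes with an unadjusted p under 0.05 in limma. The 3 genes with an adjusted p under 0.05 are MMP1, CXCL8 and PTGS2, at −2.004, −1.05 and −1.04, and the points of the other 4 lists lie on both sides of 0.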

How the data were processed

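Libraries were made by the authors with the NEBNext Ultra RNA kit, which does not mark strand, and were sequenced on an Illumina HiSeq instrument. Per the labels, the processing notes name bcl2fastq, HISAT2, DESeq2 and the build GRCh38, and the study's methods name Cuffdiff. The deposited table holds for each feature a signal, namely read counts that the authors divided by 1 size factor per library. They were whole multiples of 1 step per library for 100% of values (tolerance 0.01), which gave 33221323 to 39802365 reads per library. Genes were matched by Ensembl identifier, and coordinates and sequences were taken from GENCODE 29 on GRCh38.

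The cell lines were compared with limma (version 3.58.1, R 4.3.3) after adding 1 to each normalized count and taking log2. The variance prior followed an intensity trend, and the 21703 features with a mean of 10 or more entered the fit and the Benjamini-Hochberg adjustment. This scale understates the change of low genes. edgeR 4.0.16 (quasi-likelihood test), DESeq2 1.42.0 and 12 other settings were alternatives. The steps were tested on simulated data. A sum or share of single genes was compared by an exact permutation test.

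The label SW480-45 was taken as SW480-KD1. The members and lists were chosen with earlier results of these data known. Named were all members, HPSE, MMP1 and up to 4 genes per other list with the smallest unadjusted p under 0.05. The genes most like MAPK14 and the nearest gene that passed the filter on each side of each p38 isoform were named too. Other genes were named after their values were seen: DUSP1, VEGFA, EPCAM, CLDN4, CDX2, PECAM1, CDH5, COL1A2, CCDC117 and PDCD10.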

Additional observations from a re-analysis of the deposited data

How the results depend on the processing

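Each result was computed again with 5 as the pseudocount, no filter beyond any value above 0, a filter at a mean of 50, quantile normalization, no intensity trend, the replicate number as a block, edgeR, DESeq2 and each library left out. The number of features with an adjusted p under 0.05, 174 in limma, was 11 without the intensity trend and 756 with DESeq2, and 29 to 93 when 1 library was left out. Of the calls, 72 were higher and 102 lower in limma, and 398 higher and 358 lower with DESeq2. The number of members with an unadjusted p under 0.05, 3 in limma, was 1 to 3 when 1 library was left out, and 1 without SW480-KD1 replicate 1, SW480-NC replicate 1 or SW480-NC replicate 2. The number with an adjusted p under 0.05 was 0 to 1, the 1 being MAPK14 without SW480-KD1 replicate 2. The causes were not tested.

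With the replicate number as a block, 12 features had an adjusted p under 0.05, 2 members had an unadjusted p under 0.05 and MAPK14 had an adjusted p of 0.281 from limma. Over all features tested, same-numbered libraries had correlations of 0.0025, −0.020 and 0.0074 in their deviations from the group means. Different-numbered libraries had correlations of −0.026 to 0.024. No pairing by number was thus seen, but a pairing limited to some features could be missed by this check.

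The direction of 3 members turned when 1 library was left out. MAPKAPK2 ranged from −0.023 to 0.11 on the log2 scale over these fits and was below 0 without SW480-KD1 replicate 2 (−0.0063) and without replicate 1 (−0.0090) or 2 (−0.023) of SW480-NC. MAPKAPK3 ranged from −0.17 to 0.083 and was above 0 without SW480-KD1 replicate 3, and MAPK11 ranged from −0.078 to 0.35 and was below 0 without SW480-NC replicate 1. HPSE passed the threshold with all features (adjusted p = 0.0451), with a mean of at least 50 (0.0460), both from limma, and with DESeq2 (0.000948). HPSE did not pass when any 1 library was left out, with limma adjusted p of 0.0777 to 0.199. Nor did it pass in the remaining settings, from 0.0507 with quantile normalization to 0.169 with the replicate number as a block, both from limma. The difference of the p38 sum was 134 to 281 and that of the MAPK14 share 4.33 to 12.1 percentage points when 1 library was left out. For these the exact permutation test of 3 against 2 libraries cannot give a p under 0.2, so its p could not pass the threshold.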
